A study of Mus musculus with 7 samples.

Results

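The genes described here encode the proteasome, the protease of the cytosol and nucleus that degrades ubiquitin-tagged proteins, with its activators, its inhibitor and its dedicated assembly chaperones. Members were the rows of the count table whose symbol is Psm followed by a letter from a to g and a number, which gave 48 of 57180 genes. Of these, 46 passed the filter on low counts. The 2 that did not, Psma8 and Psmb11, are given by their counts.

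RNA was measured in regulatory T (Treg) cells, which hold other immune cells in check and need the transcription factor FOXP3, sorted from tumours into 3 FOXP3-high and 4 FOXP3-low samples. Both groups came from Foxp3-Cre-YFP mice that carried B16-F0 melanoma, a transplantable mouse tumour, and the labels give both the genotype WT. In this reporter Cre recombinase and YFP are made from the Foxp3 gene. The sources used here give no ages and no sort gates, and they do not say whether each sample was 1 mouse. The p-values therefore cover the spread among these 7 samples, and that spread may be technical.

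Library totals were 11202260, 9048771 and 10137749 counts in FOXP3-high and 12669495, 12575884, 14546999 and 12177761 counts in FOXP3-low. Foxp3 ran from 639 to 808 CPM in FOXP3-high and from 309.7 to 397 CPM in FOXP3-low (log2 fold change 0.97 ± 0.109, edgeR adjusted p = 7.47e-05), and its groups did not overlap. The groups were sorted by FOXP3, so this difference checks the labels and is no separate result. The T cell label was checked with 17 alpha-beta CD4 T cell genes, which summed to 5156 to 5849 CPM in FOXP3-high and 3900.2 to 4327 CPM in FOXP3-low. Of these genes, 15 were higher, 1 was lower and 1 did not pass. Markers of other cells were present in every library. The macrophage marker Ms4a7 was at 0 in FOXP3-high replicate 2, and no other marker was at 0 in any library. The 15 macrophage and monocyte markers, all lower in FOXP3-high, summed to 235 to 357 CPM in FOXP3-high and 2451 to 3142 CPM in FOXP3-low. The 12 melanoma and melanocyte markers, 10 of them higher, summed to 3478 to 4778 CPM in FOXP3-high and 1445 to 2569.5 CPM in FOXP3-low. The 20 cell cycle genes, all lower, summed to 1428 to 1634 CPM in FOXP3-high and 6094 to 6546 CPM in FOXP3-low. The part of these differences in the results on proteasome genes was not tested.

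The proteasome is a barrel, the 20S core, whose outer rings of alpha subunits form the gate and whose inner rings of beta subunits hold the active sites. The 19S particle caps the core, binds ubiquitin chains, removes them and unfolds the substrate with a ring of ATPases. In cells of the immune system, and in other cells under interferon-gamma, the catalytic subunits PSMB8, PSMB9 and PSMB10 take the places of PSMB5, PSMB6 and PSMB7 and form the immunoproteasome, which favours peptides that fit MHC class I molecules. The activator of PSME1 and PSME2 is induced by the same cytokine.

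Proteasome genes as a group were lower in the FOXP3-high than in the FOXP3-low libraries, which also held the markers of other cells given above. Values are CPM, the usual depth-scaled counts, computed on TMM-normalized library sizes, and a negative log2 fold change, given ± its standard error, means lower in FOXP3-high. Of the 46 tested members, 36 fell in FOXP3-high and 0 rose (edgeR quasi-likelihood test at an adjusted p under 0.05, with Benjamini-Hochberg adjustment over 15838 genes; 0 members were higher at an unadjusted p under 0.05, and 0 with DESeq2). Among all genes tested 24.6% were called lower and 21.8% higher. The 36 members are 78.3% of those tested. The median log2 fold change was -0.48 over the 46 members, and 0.012 over all genes tested.

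Member log2 fold changes ran from -0.95 to 0.069, and 0 of them lay below -1, a point that 41.1% of all genes called lower had passed. The summed level of the 48 members was 4231, 4229 and 4116 CPM in the FOXP3-high libraries, against 6019, 5781, 5701 and 5772 CPM in the FOXP3-low libraries. No FOXP3-high library reached the lowest FOXP3-low library in this sum. In 35 of the tested members every FOXP3-high library lay below every FOXP3-low library, which held for 26.8% of all genes tested, and in 0 members did every FOXP3-high library lie above, against 23.9% of all genes. Libraries of 1 group were close together, with a median coefficient of variation over members of 5.54% in FOXP3-high and 5.68% in FOXP3-low. In bulk RNA, fewer cells of a type and less RNA per cell cannot be told apart.

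**Figure D1:**
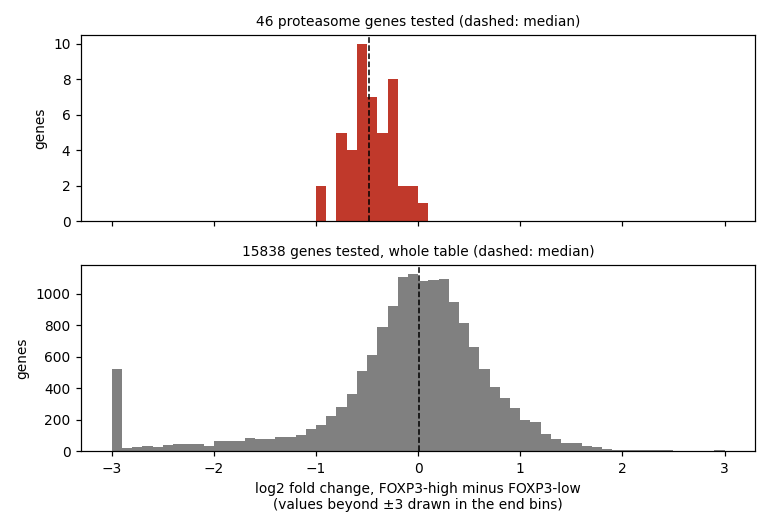
Number of genes (vertical axis) in bins of log2 fold change, FOXP3-high minus FOXP3-low (horizontal axis), for the 46 tested proteasome genes (top) and all 15838 genes tested (bottom), with dashed lines at the medians. The proteasome genes form a narrow group with a median of -0.48, while the whole table is centred near 0 at 0.012.

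Every one of the 7 tested alpha ring genes fell in FOXP3-high, with log2 fold changes between -0.77 and -0.50. Psma4, the alpha gene with the highest level per kb in both groups, was at 249, 238 and 238 CPM in the FOXP3-high libraries, against 431, 418, 391 and 414 CPM in the FOXP3-low libraries (log2 fold change -0.77 ± 0.0475, edgeR adjusted p = 1.72e-06). The groups did not overlap, and the FOXP3-low mean was 1.71 times the FOXP3-high one in the fit. Psma6 was at 61.3, 65 and 64.3 CPM in the FOXP3-high libraries, against 104, 99.4, 100.0 and 100.1 CPM in the FOXP3-low libraries (log2 fold change -0.67 ± 0.0545, edgeR adjusted p = 9.38e-06). Psma7 was at 80.6, 78.2 and 74.6 CPM in the FOXP3-high libraries, against 114, 113, 115 and 114 CPM in the FOXP3-low libraries (log2 fold change -0.55 ± 0.0517, edgeR adjusted p = 2.35e-05). In both genes the FOXP3-low libraries lay close together and all 3 FOXP3-high libraries lay below them. Psma1 (-0.70), Psma5 (-0.74), Psma3 (-0.51) and Psma2 (-0.50) fell as well, with edgeR adjusted p-values of at most 0.000601. The testis-linked alpha subunit gene Psma8 held 0 counts in all 3 FOXP3-high libraries, which allows up to 0.0987 CPM over the group, and 1, 6, 2 and 3 counts in the FOXP3-low libraries. This limit covers counting error only.

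Among the 7 constitutive beta ring genes 6 fell and 1, Psmb3, did not pass. These include the 3 catalytic genes. Psmb5, the chymotrypsin-like subunit, was at 11.5, 8.57 and 12.3 CPM in the FOXP3-high libraries, against 17.6, 14.1, 13.5 and 16.6 CPM in the FOXP3-low libraries (log2 fold change -0.51 ± 0.158, edgeR adjusted p = 0.0236). The call of Psmb5 was lost without FOXP3-low replicate 1, FOXP3-low replicate 4 or FOXP3-high replicate 2 (adjusted p between 0.0716 and 0.0883), and its counts were low, at 77 to 217 per library. Psmb6, the caspase-like subunit, was at 26.5, 22.5 and 24.3 CPM in the FOXP3-high libraries, against 38.4, 38.6, 37.8 and 36.5 CPM in the FOXP3-low libraries (log2 fold change -0.63 ± 0.0783, edgeR adjusted p = 0.000145). Psmb7, the trypsin-like subunit, was at 42.3, 43.2 and 44.5 CPM in the FOXP3-high libraries, against 56.9, 63.4, 62.7 and 66.1 CPM in the FOXP3-low libraries (log2 fold change -0.52 ± 0.0705, edgeR adjusted p = 0.00024). Every FOXP3-high library lay below every FOXP3-low library in all 3 catalytic genes.

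The other constitutive beta genes are structural. Psmb4 was at 33.6, 37 and 28.3 CPM in the FOXP3-high libraries, against 51.6, 47.9, 45.4 and 47.1 CPM in the FOXP3-low libraries (log2 fold change -0.54 ± 0.0975, edgeR adjusted p = 0.0014). Psmb2 had the most negative log2 fold change of all tested members, -0.95 ± 0.188 (edgeR adjusted p = 0.00247), on 61 to 174 counts per library. Psmb1 passed narrowly (-0.26, edgeR adjusted p = 0.0447), and its call was lost on leaving out any single library other than FOXP3-low replicate 3 (adjusted p between 0.0502 and 0.151). Psmb3 stood at 16.7 ± 3.54 CPM in FOXP3-high and 19.5 ± 1.53 CPM in FOXP3-low (SD, n = 3 and n = 4), with a log2 fold change of -0.23 and an edgeR adjusted p of 0.222. Without FOXP3-high replicate 2, its highest FOXP3-high library, Psmb3 passed as lower (log2 fold change -0.37, edgeR adjusted p = 0.0419). Leaving out FOXP3-high replicate 3, its lowest FOXP3-high library, gave -0.097 (edgeR adjusted p = 0.604).

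**Figure D2:**
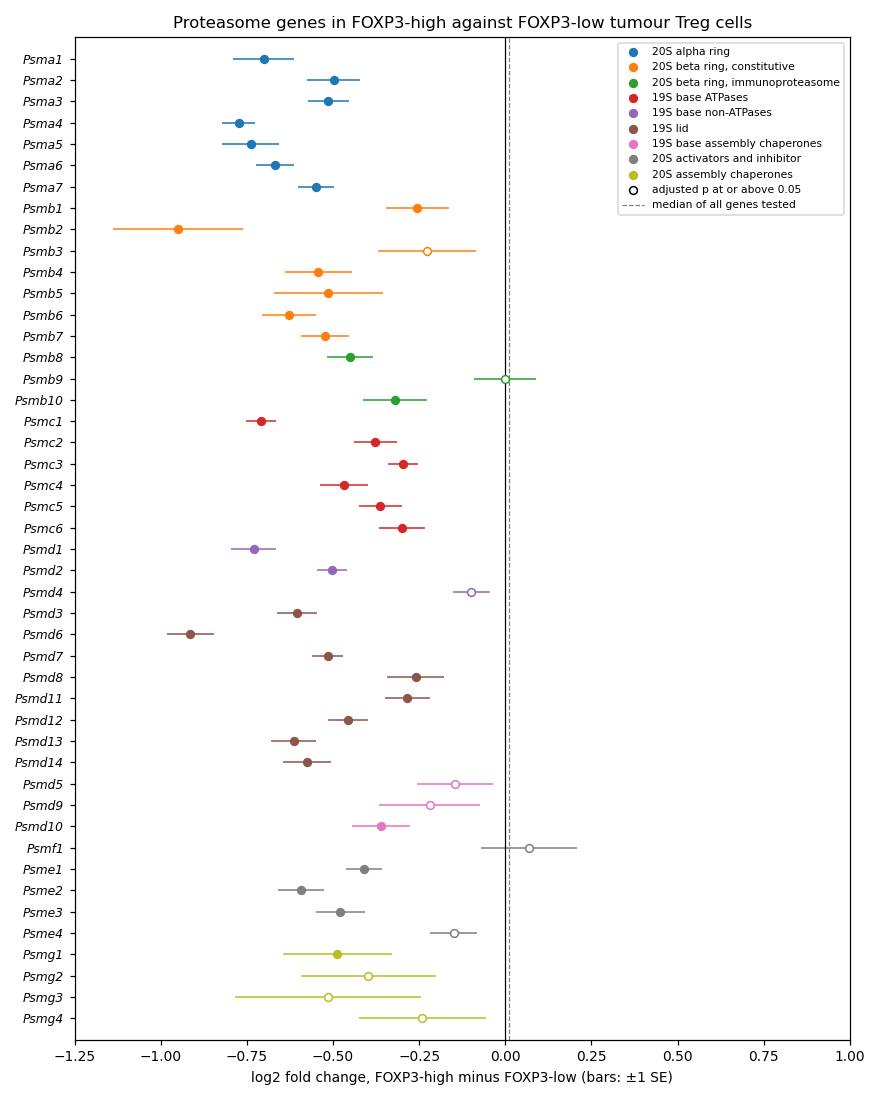
Log2 fold change, FOXP3-high minus FOXP3-low, with ±1 SE, for each tested proteasome gene (rows), coloured by role; filled points passed an adjusted p of 0.05 and open points did not. All points but Psmf1 lie at or left of 0, Psmb9 lies at 0, and Psmd6 and Psmb2 lie furthest left, at -0.91 and -0.95.

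Of the 3 immunoproteasome genes, Psmb8 and Psmb10 fell and Psmb9 did not pass. All 3 were expressed in both groups. Psmb8 (ENSMUSG00000024338, chromosome 17, 34416695 to 34420179, plus strand, GRCm39) was at 167, 174 and 172 CPM in the FOXP3-high libraries, against 256, 244, 211 and 226 CPM in the FOXP3-low libraries (log2 fold change -0.45 ± 0.0676, edgeR adjusted p = 0.000467). All 3 FOXP3-high libraries lay below the FOXP3-low libraries, and the FOXP3-low level was 1.37-fold the FOXP3-high level. Psmb8 overlaps Gm20496 on the opposite strand, which held 2865 counts in all against 17190 for Psmb8.

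Psmb10 (ENSMUSG00000031897, chromosome 8, 106662367 to 106665076, minus strand, GRCm39) was at 26.7, 24 and 24.8 CPM in the FOXP3-high libraries, against 34.8, 30.3, 28 and 32.9 CPM in the FOXP3-low libraries (log2 fold change -0.32 ± 0.0934, edgeR adjusted p = 0.0188). The groups did not overlap, but the call was lost without FOXP3-low replicate 1, FOXP3-low replicate 4, FOXP3-high replicate 2 or FOXP3-high replicate 3 (adjusted p between 0.0578 and 0.0801) and with scaling to total counts (0.0551). Psmb10 overlaps Gm16156 on the opposite strand.

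Psmb9 (ENSMUSG00000096727, chromosome 17, 34400961 to 34406738, minus strand, GRCm39) was at 51, 66 and 55.8 CPM in the FOXP3-high libraries, against 59.6, 58.1, 54.9 and 57.8 CPM in the FOXP3-low libraries. The groups overlapped fully and their means were equal to 3 digits, at 57.6 ± 7.68 CPM in FOXP3-high and 57.6 ± 1.96 CPM in FOXP3-low (SD; log2 fold change -0.0011 ± 0.0892, edgeR adjusted p = 0.993). FOXP3-high replicate 2 was the highest of the 7 libraries and FOXP3-high replicate 1 the lowest. The sign of so small a value depended on the scaling and on the library left out. Psmb9 overlaps Tap1, a peptide transporter gene, on the opposite strand; Tap1 held 20900 counts in all against 4698 for Psmb9, and without a stated strand setting their reads cannot be told apart. Tap1 was at 254, 260.2 and 240.3 CPM in the FOXP3-high libraries, against 276, 263, 238 and 254 CPM in the FOXP3-low libraries (log2 fold change -0.035 ± 0.0578, edgeR adjusted p = 0.663).

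The balance of each immunoproteasome gene against the constitutive gene it replaces was read as a ratio of counts per kb, which does not depend on the scaling of the library. The log2 ratio of Psmb9 to Psmb6 was -0.022, 0.59 and 0.23 in the FOXP3-high libraries, against -0.34, -0.38, -0.43 and -0.30 in the FOXP3-low libraries. Every FOXP3-high library lay above every FOXP3-low library, by 0.63 between the means, a 1.54-fold higher ratio (two-sided exact permutation test p = 0.0571, the smallest that 3 against 4 libraries allow, and 0.171 adjusted over the 3 pairs). Reads of Psmb9 and of the overlapping Tap1 cannot be told apart, as given above, so this ratio is uncertain. The ratio of Psmb8 to Psmb5 overlapped between the groups, at 1.95, 2.44 and 1.90 in the FOXP3-high libraries, against 1.95, 2.20, 2.06 and 1.85 in the FOXP3-low libraries (difference 0.079, exact permutation p = 0.686, 0.686 adjusted), and without FOXP3-high replicate 2 its difference was -0.092. The ratio of Psmb10 to Psmb7 was 0.34, 0.16 and 0.16 in the FOXP3-high libraries, against 0.29, -0.058, -0.16 and -0.0027 in the FOXP3-low libraries (difference 0.20, exact permutation p = 0.171, 0.257 adjusted), with FOXP3-low replicate 1 inside the FOXP3-high range. The groups overlapped in both of these pairs. With 3 against 4 libraries no pair can reach an exact permutation p under 0.05, so these tests cannot show that a ratio was unchanged. The thymus-specific subunit gene Psmb11 held 0, 2 and 2 counts in the FOXP3-high libraries and 0 counts in every FOXP3-low library, which allows up to 0.0577 CPM over the group.

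**Figure D3:**
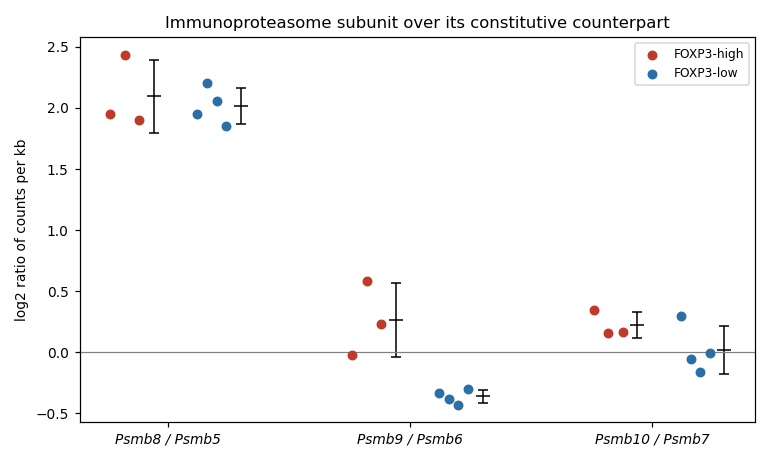
Log2 ratio of counts per kb (vertical axis) of each immunoproteasome gene over its constitutive counterpart (horizontal axis), 1 point per library, FOXP3-high in red and FOXP3-low in blue, with mean ± SD in black. The groups separate for Psmb9 over Psmb6 and overlap for the other pairs. Reads of Psmb9 and of the overlapping Tap1 cannot be told apart.

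**Figure D4:**
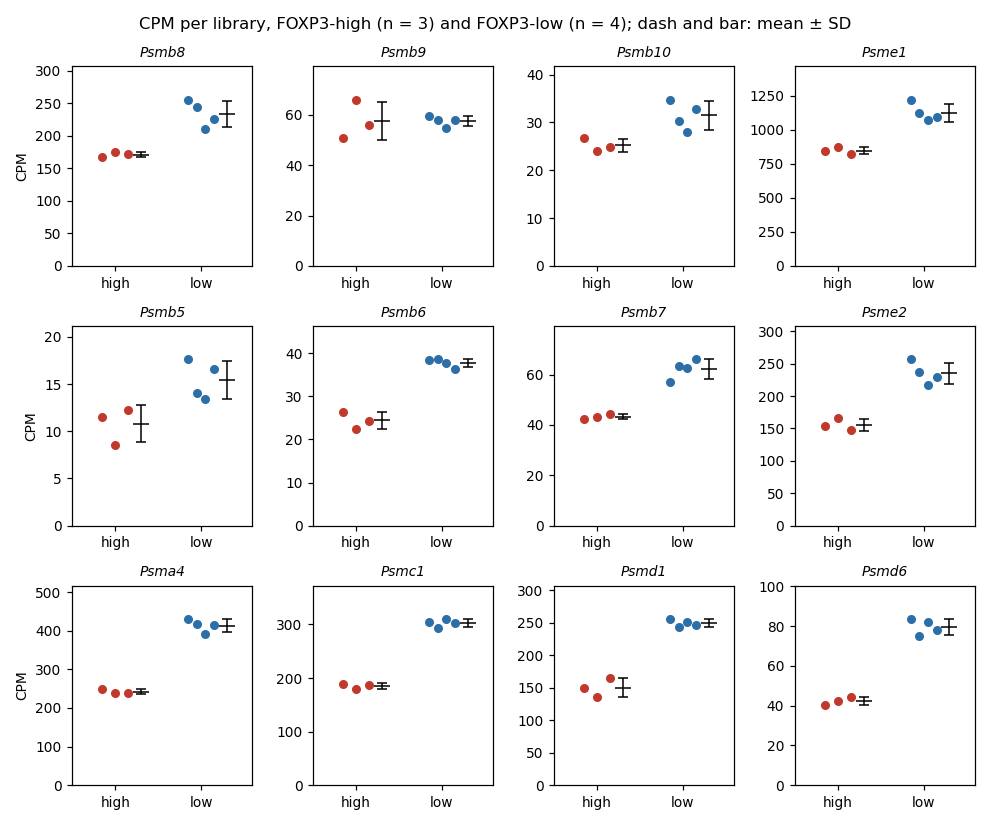
CPM per library (vertical axis, from 0) for 12 proteasome genes, FOXP3-high (red, n = 3) left of FOXP3-low (blue, n = 4), with mean ± SD in black. The FOXP3-high libraries lie below the FOXP3-low libraries in each gene shown but Psmb9, where both means are 57.6 CPM.

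Since most members fell together, their promoters were read for short letter matches that are known for proteasome genes and for interferon-induced genes. RefSeq promoters (GRCm38.p6, a build other than that of the counts) matched 40 of the 48 members with 43 promoter entries, and the 250 bases before each start were searched on both strands. The core of the antioxidant response element, TGACNNNGC, which the stress factors NFE2L1 and NFE2L2 bind, was found in 5 member promoters (11.6%), against 10.2% of all 32851 promoter entries. These shares were close. The 5 promoters include those of the catalytic genes Psmb5 and Psmb6. The windows are shown 5′ to 3′ on the gene's strand, with GRCm38.p6 coordinates and the match in capitals, because Psmb5 and Psmb6 are the constitutive counterparts compared above. In Psmd12 and Psmc6 the capitals hold the match as read on the opposite strand.

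Psmd9 (chr5:123228149-123228177, plus strand): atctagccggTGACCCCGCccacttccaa
Psmb6 (chr11:70525338-70525356, plus strand): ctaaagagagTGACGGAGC
Psmd12 (chr11:107479278-107479299, plus strand): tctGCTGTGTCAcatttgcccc
Psmc6 (chr14:45329587-45329615, plus strand): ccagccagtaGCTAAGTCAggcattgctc
Psmb5 (chr14:54618024-54618052, minus strand): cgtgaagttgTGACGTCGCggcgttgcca

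The core of the interferon-stimulated response element, GAAA repeated after any 2 bases, was found in 3 member promoters (6.98%), against 2.98% of all entries, and in 0 of the 3 immunoproteasome promoters. The core of the gamma-activated site, TTCNNNGAA, which reads the same on both strands, was found in 2 (4.65%), against 7.02%, one of them Psmb8. These windows are shown because they are the letters linked to interferon signals, and none of the capitals in the windows overlapped another match. In Psmd4 and Psmb3 the match lies on the opposite strand. The CCAAT box, CCAAT, was found in 14 member promoters (32.6%), against 33.8% of all entries, Psmb9 among them.

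Psmd4 (chr3:95042675-95042704, minus strand): ataaccaaccTTTCCATTTCtgtggcgcct
Psmd9 (chr5:123228021-123228050, plus strand): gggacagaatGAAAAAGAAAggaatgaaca
Psmb3 (chr11:97703261-97703290, plus strand): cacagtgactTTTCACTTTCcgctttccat
Psmg1 (chr16:95991185-95991210, minus strand): actcatgTTCTCTGAAtccgcttgca
Psmb8 (chr17:34198088-34198116, plus strand): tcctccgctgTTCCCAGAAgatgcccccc

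These shares are descriptions of the windows searched and not of any factor's binding. Of the members whose windows are shown, Psmb5, Psmb6, Psmb8, Psmc6, Psmd12 and Psmg1 were called lower, while Psmb3, Psmd4 and Psmd9 did not pass.

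Of the 17 members that encode subunits of the 19S particle, 16 fell and 1, Psmd4, did not pass. Adrm1 and Sem1 also encode 19S subunits but lie outside the name rule. Adrm1 did not pass (log2 fold change -0.040, edgeR adjusted p = 0.695), and Sem1 fell (-0.33, edgeR adjusted p = 0.00974). All 6 ATPase genes of the base fell, with log2 fold changes between -0.71 and -0.30. Psmc1 was at 189.6, 179 and 187 CPM in the FOXP3-high libraries, against 304, 293, 310.4 and 303 CPM in the FOXP3-low libraries (log2 fold change -0.71 ± 0.044, edgeR adjusted p = 1.83e-06). Psmc3, the ATPase gene with the highest level per kb in FOXP3-high, was at 321, 322 and 313 CPM in the FOXP3-high libraries, against 374, 391, 391 and 409 CPM in the FOXP3-low libraries (log2 fold change -0.30 ± 0.044, edgeR adjusted p = 0.000441). Psmc4 was at 58.6, 56.6 and 59.9 CPM in the FOXP3-high libraries, against 78, 81.2, 88.5 and 75.1 CPM in the FOXP3-low libraries (log2 fold change -0.47 ± 0.0709, edgeR adjusted p = 0.000498). In all 6 ATPase genes the groups did not overlap. Psmc2 (-0.38), Psmc5 (-0.36) and Psmc6 (-0.30) had edgeR adjusted p-values of at most 0.00464.

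The large scaffold subunits of the base also fell. Psmd1 was at 149.7, 136 and 166 CPM in the FOXP3-high libraries, against 256, 244, 252 and 247 CPM in the FOXP3-low libraries (log2 fold change -0.73 ± 0.0657, edgeR adjusted p = 1.79e-05). Psmd2, which docks ubiquitin-like proteins, was at 257, 254 and 238 CPM in the FOXP3-high libraries, against 354, 354, 357 and 350.0 CPM in the FOXP3-low libraries (log2 fold change -0.50 ± 0.0435, edgeR adjusted p = 1.39e-05). The FOXP3-low libraries of Psmd2 lay within a few CPM of each other, far above the FOXP3-high ones. Psmd4, a ubiquitin receptor of the base, did not pass, at 234, 238 and 223 CPM in the FOXP3-high libraries, against 265, 251, 234 and 242 CPM in the FOXP3-low libraries (log2 fold change -0.10 ± 0.0536, edgeR adjusted p = 0.166). FOXP3-low replicate 3 lay inside the FOXP3-high range. Psmd1 overlaps Gm21972 on the same strand, which held 6157 counts against 17411 and a log2 fold change of -0.76, so that their reads may not be separate.

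All 8 lid genes among the members fell, and in 7 of them the groups did not overlap. Psmd6 was at 40.2, 42.5 and 44.3 CPM in the FOXP3-high libraries, against 83.7, 74.8, 82.1 and 78.1 CPM in the FOXP3-low libraries (log2 fold change -0.91 ± 0.0687, edgeR adjusted p = 5.62e-06), close to a 1.88-fold difference and the largest among lid genes. Psmd7, the partner of the deubiquitinase, was at 143, 141 and 138 CPM in the FOXP3-high libraries, against 209.7, 199, 199.6 and 197 CPM in the FOXP3-low libraries (log2 fold change -0.52 ± 0.0453, edgeR adjusted p = 1.51e-05). Psmd3 was at 78.3, 71.5 and 71 CPM in the FOXP3-high libraries, against 117, 109.7, 110.3 and 111 CPM in the FOXP3-low libraries (log2 fold change -0.60 ± 0.0591, edgeR adjusted p = 2.99e-05). Psmd14, the deubiquitinase that takes ubiquitin chains off substrates, had a log2 fold change of -0.57 ± 0.0696 (edgeR adjusted p = 0.00012). Psmd13 (-0.61), Psmd12 (-0.46) and Psmd11 (-0.29) passed as well, with edgeR adjusted p-values of at most 0.00559. Psmd8 was the lid gene whose groups overlapped (-0.26, edgeR adjusted p = 0.0271), and its call was lost without FOXP3-low replicate 2, FOXP3-low replicate 4, FOXP3-high replicate 2 and FOXP3-high replicate 3 in turn (adjusted p between 0.0883 and 0.132). Psmd13 overlaps Gm15542 on the same strand, which held 2038 counts against 4039 and had a log2 fold change of 0.17.

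Of the 5 genes for regulators that bind the ends of the core, the 3 genes of the 11S family fell and the others did not pass. Psme1 (ENSMUSG00000022216, chromosome 14, 55815580 to 55818908, plus strand, GRCm39) had the highest level per kb of all members. It was at 846, 875 and 822 CPM in the FOXP3-high libraries, against 1222, 1120.0, 1071 and 1093 CPM in the FOXP3-low libraries (log2 fold change -0.41 ± 0.0528, edgeR adjusted p = 0.000178). Psme2 (ENSMUSG00000079197, chromosome 14, 55824898 to 55828558, minus strand, GRCm39), its partner, was at 154, 166 and 147 CPM in the FOXP3-high libraries, against 257, 237, 217 and 229 CPM in the FOXP3-low libraries (log2 fold change -0.59 ± 0.0673, edgeR adjusted p = 7.97e-05). Psme3, whose product forms the nuclear activator, was at 58.9, 59 and 52.8 CPM in the FOXP3-high libraries, against 74.1, 78.9, 84.2 and 79.8 CPM in the FOXP3-low libraries (log2 fold change -0.48 ± 0.0704, edgeR adjusted p = 0.000419). In each of the 3 the highest FOXP3-high library lay below the lowest FOXP3-low library.

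Psme4, a large activator that caps the core without ATP, was at 58.5, 53.5 and 60.5 CPM in the FOXP3-high libraries, against 62.3, 61.7, 63.7 and 67.6 CPM in the FOXP3-low libraries. Its groups did not overlap either, but the difference was small and did not pass (log2 fold change -0.15 ± 0.0679, edgeR adjusted p = 0.0991). Psmf1, a protein that inhibits the core in vitro, was the single member with a positive estimate under TMM scaling, at 9.97, 9.8 and 11.2 CPM in the FOXP3-high libraries, against 10.8, 9.11, 10.9 and 8.62 CPM in the FOXP3-low libraries (log2 fold change 0.069 ± 0.14, edgeR adjusted p = 0.726), and its groups overlapped. Psme2b, a near-copy of Psme2 outside the name rule, went the other way from Psme2, at 72.6, 71 and 67.1 CPM in the FOXP3-high libraries, against 64.4, 57.6, 55.3 and 52.6 CPM in the FOXP3-low libraries (log2 fold change 0.29 ± 0.0786, edgeR adjusted p = 0.0135). Psme2b overlaps 9930111J21Rik1 and Gm12185 on the same strand, and reads of the copies may have been shared, so both values are uncertain.

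Of the 7 genes for assembly chaperones, which bring subunits together and leave the finished particle, 2 fell and 5 did not pass. Over all genes tested 24.6% were called lower, and the 7 were not tested against this share. In 1 of the 7 every FOXP3-high library lay below every FOXP3-low library, against 26.8% of all genes tested. Of the base chaperones, Psmd10, which encodes gankyrin, fell at 19.2, 17.6 and 17.3 CPM in the FOXP3-high libraries, against 24.1, 21.8, 23.1 and 23.5 CPM in the FOXP3-low libraries (log2 fold change -0.36 ± 0.084, edgeR adjusted p = 0.00612), and its call was lost without both libraries numbered 3 (adjusted p = 0.0644). Psmd5 stood at 21.5 ± 2.9 CPM in FOXP3-high and 23.8 ± 1.99 CPM in FOXP3-low and Psmd9 at 15.9 ± 1.63 CPM in FOXP3-high and 18.5 ± 3.26 CPM in FOXP3-low (SD, n = 3 and n = 4), with edgeR adjusted p-values of 0.318 and 0.252. Of the core chaperones, Psmg1 fell at 10.1, 12.5 and 8.97 CPM in the FOXP3-high libraries, against 12, 14.5, 17 and 15.4 CPM in the FOXP3-low libraries (log2 fold change -0.49 ± 0.159, edgeR adjusted p = 0.0304), with overlapping groups and a call that was lost without FOXP3-low replicate 2, FOXP3-low replicate 3, FOXP3-low replicate 4, FOXP3-high replicate 1 and FOXP3-high replicate 3 in turn (adjusted p between 0.0593 and 0.103). Its partner Psmg2 was at 5.69 ± 0.248 CPM in FOXP3-high and 7.5 ± 1.56 CPM in FOXP3-low (edgeR adjusted p = 0.127), and it passed as lower without FOXP3-low replicate 2, its lowest FOXP3-low library (log2 fold change -0.50, edgeR adjusted p = 0.0488). Leaving out FOXP3-low replicate 1, its highest, gave -0.26 (edgeR adjusted p = 0.313). Psmg3 (-0.51, edgeR adjusted p = 0.149) and Psmg4 (-0.24, edgeR adjusted p = 0.321) did not pass, on 16 to 85 counts per library. Psmd9 overlaps Hpd on the opposite strand and Psmg3 overlaps Gm26938 on the same strand. Whether chaperone genes were called at another rate than subunit genes was not tested.

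Levels between genes were compared as CPM per kb of the deposited gene length. That length, such as 899 bases for Psmb5 and 4595 for Psmb1, was not checked against the transcripts expressed here. The levels per kb are therefore rough. Psme1 was highest, at 384 CPM per kb in FOXP3-high and 509.9 in FOXP3-low, followed in FOXP3-high by Psmc3 at 122 and Psma4 at 102, against 150.1 and 174 CPM per kb in FOXP3-low. The products of the 14 tested alpha and constitutive beta genes are present in equal number in a constitutive core. Their transcripts ranged from 5.04 to 102 CPM per kb in FOXP3-high and from 8.46 to 174 in FOXP3-low. Psmb8 stood at 50.7 CPM per kb in FOXP3-high and 69.2 in FOXP3-low, above its counterpart Psmb5 at 12 and 17.2.

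Of 22 listed genes outside the name rule that work with the proteasome or form part of it, 9 were lower in FOXP3-high, 3 were higher and 10 did not pass. Their median log2 fold change was -0.14. Over all genes tested, 24.6% were called lower and 21.8% higher, and the list was not tested against these shares. Nfe2l2, the oxidative stress factor that can raise proteasome genes, was at 42, 37 and 49.5 CPM in the FOXP3-high libraries, against 118, 113, 107 and 106 CPM in the FOXP3-low libraries (log2 fold change -1.37 ± 0.0973, edgeR adjusted p = 4.01e-06). Nfe2l1, the factor that restores proteasome genes after inhibition, was at 226 ± 19.4 CPM in FOXP3-high and 212 ± 12.5 CPM in FOXP3-low (SD; log2 fold change 0.089 ± 0.0694, edgeR adjusted p = 0.327), with overlapping groups. Uchl5, a deubiquitinase of the 19S particle, was at 42.7, 43.9 and 43 CPM in the FOXP3-high libraries, against 80.5, 81.2, 73.2 and 79.5 CPM in the FOXP3-low libraries (log2 fold change -0.86 ± 0.0632, edgeR adjusted p = 4.85e-06). Pomp, which helps the beta rings assemble, was at 39.6, 35.5 and 46.1 CPM in the FOXP3-high libraries, against 71.4, 64.2, 71.8 and 66.5 CPM in the FOXP3-low libraries (log2 fold change -0.76 ± 0.0945, edgeR adjusted p = 0.000143). Txnl1, a thioredoxin bound to the 19S particle, had a log2 fold change of -0.62 (edgeR adjusted p = 0.000132). The 3 that rose were Psme2b, given above, Ngly1 (0.29, edgeR adjusted p = 0.0274), which removes sugars from NFE2L1 and other proteins and overlaps Oxsm on the opposite strand, and Ube3c (0.23, edgeR adjusted p = 0.0427), a ubiquitin ligase bound to the proteasome.

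Genes of class I peptide processing and its interferon regulators, a list of 19, gave 7 lower and 6 higher, with a median of -0.0078. The shares over all genes tested were 24.6% lower and 21.8% higher, and this list was not tested against them either. Among those that rose, Nlrc5, the class I transactivator, was at 388, 452 and 369 CPM in the FOXP3-high libraries, against 269, 265, 246 and 254 CPM in the FOXP3-low libraries (log2 fold change 0.64 ± 0.0701, edgeR adjusted p = 6.26e-05). Ifngr1, a chain of the interferon-gamma receptor, had a log2 fold change of 1.24 (edgeR adjusted p = 8.07e-07), while Ifngr2, the other chain, fell (-0.71, edgeR adjusted p = 0.00313). The kinase gene Jak1 rose, with a log2 fold change of 0.41 (edgeR adjusted p = 5.04e-05). In the other direction, Irf8, an interferon regulatory factor abundant in myeloid cells, had a log2 fold change of -1.63 ± 0.0861 (edgeR adjusted p = 8.18e-07). It was at 82.2, 73.8 and 92.6 CPM in the FOXP3-high libraries, against 278, 250.1, 262 and 236 CPM in the FOXP3-low libraries. Macrophage and monocyte markers were lower as well, and their part in the difference of this or any other gene was not tested. The endoplasmic reticulum chaperone genes Calr (-0.62), Pdia3 (-0.46) and Canx (-0.34) fell with edgeR adjusted p-values of at most 0.000683.

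Scaling to the 17 T cell genes in place of TMM moved the median of all genes tested by -0.39, and then 45 of the 46 members were lower and 0 higher (edgeR), while 1079 of all genes were higher and 7206 (45.5%) lower, against 3459 higher and 3898 lower with TMM. The member median relative to that of all genes was -0.50 with this scaling and -0.49 with TMM. Psmb9 then passed as lower (log2 fold change -0.39, edgeR adjusted p = 0.00243), though relative to the median of all genes it stood at -0.017. Psmf1 was the member that did not pass (-0.32, edgeR adjusted p = 0.151), and relative to the median of all genes it stood at 0.056 with this scaling and 0.057 with TMM. Tested against a minimum size of 0.5 on the log2 scale (glmTreat) in place of 0, 8 of the 46 members were lower, against 11.5% of all genes tested. They were Psmd6, Psma4, Psmc1, Psmd1, Psma6, Psma5, Psmb2 and Psma1.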

How the data were processed

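The authors deposited whole-number counts per gene, not normalized, as 1 table of 57180 genes with coordinates and gene length. The submitters' processing notes list, among tools, STAR 2.5.3a, fastp 0.23.4 and featureCounts, in no stated order, and GRCm39 and GRCh38 are the builds listed; mouse coordinates are given here as GRCm39. Per the labels' protocols, the libraries were stranded mRNA libraries from TRIzol-extracted RNA. The sources used here do not give the strand setting, the treatment of shared reads or any use of molecular identifiers, so overlapping and near-identical genes are uncertain, and the limits given for counts of 0 cover counting error only. Overlaps are named where the other gene held at least 10% as many counts.

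Sample titles gave the groups and the replicate numbers. Replicates of a group differed by more than counting noise in every pair (chi-square per gene 3.98 to 12.2), and all 7 were kept. The members, gene lists, tests and alternatives were chosen with earlier results of these data known. With edgeR 4.0.16 (R 4.3.3), the filter filterByExpr was applied (minimum count 10, total 15), which left 15838 genes, and these were scaled by TMM (factors 0.973 to 1.05) and tested with glmQLFit and glmQLFTest with no block term. Benjamini-Hochberg adjustment ran over the 15838 genes, and the threshold was 0.05. Standard errors were taken from the log2 fold change and the F value (size over the root of F). Pair ratios were compared by exact permutation tests. The fit was also run on simulated counts as a check of the code only, and no result given here rests on it. Named genes were the 3 immunoproteasome genes and their counterparts, the regulators of the core, up to 3 called members per role with the smallest adjusted p, and up to 4 genes per direction of each of the other lists. Tap1, Nfe2l1, Ifngr2, Ms4a7, Adrm1 and Sem1 were named outside this rule, after their values were seen. One gene that this rule names is not reported here. Alternatives were DESeq2 size factors, upper quartile factors, total counts, T cell scaling, other filters (none, or at least 50 counts in 3 libraries), limma-voom (limma 3.58.1), the Wald test of DESeq2 1.42.0, glmTreat, a replicate block and leaving out libraries.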

Additional observations from a re-analysis of the deposited data

Results flagged for a closer look

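In each of 3 members, 1 FOXP3-low library stood further from the other 3 than Dixon's 95% criterion allows, and in each it was replicate 1, on the high side. Psma6 was at 104 CPM there, with the next library at 100.1 CPM. Psmd3 was at 117 CPM, with the next at 111 CPM, and Psmd5 at 26.7 CPM, with the next at 23.1 CPM. Of 49 groups of 4 values examined, chance alone gives about 1 in 20 such cases. Without this library the log2 fold change was -0.63 for Psma6 (edgeR adjusted p = 6.23e-05), -0.56 for Psmd3 (edgeR adjusted p = 0.00023) and -0.066 for Psmd5, which did not pass with it either.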

How the results depend on the processing

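The count of members called lower, 36, ran from 31 to 35 when each library was left out in turn and from 32 to 45 over the other normalizations, filters and tests, except that glmTreat gave 8 members and 2755 genes in all. The count of members called higher was 0 in each of the 18 alternatives, and 0 of the 36 called members changed sign in any. Of these, 30 kept their call in every alternative but glmTreat, and the others were Psmb1, Psmb5, Psmb10, Psmd8, Psmd10 and Psmg1. Upper quartile factors ended the calls of Psmb1 and Psmd8 (adjusted p between 0.0595 and 0.0939), total counts those of Psmb1, Psmb5, Psmb10 and Psmd8 (0.0535 to 0.105), and leaving out both libraries numbered 3 those of Psmb1, Psmd8, Psmd10 and Psmg1 (0.0644 to 0.198). All genes called ran from 6392 to 6890 when a library was left out, against 7357.

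The log2 fold change of Psmb9 was 0.048 with upper quartile factors, 0.065 with total counts and 0.0012 with the strict filter, and from -0.083 to 0.054 when a library was left out. Psmf1 turned to -0.32 with T cell scaling, by the shift common to all genes. On leaving out a library the difference in the log2 ratio ran from -0.092 to 0.18 for Psmb8 to Psmb5, from 0.46 to 0.77 for Psmb9 to Psmb6 and from 0.14 to 0.30 for Psmb10 to Psmb7. Against the mean of the 7 constitutive beta genes, the difference for Psmb9 was 0.52 (exact permutation p = 0.0571). It was 0.076 for Psmb8 (exact permutation p = 0.171) and 0.21 for Psmb10 (exact permutation p = 0.114). The value for Psmb9 is uncertain, because its reads and those of Tap1 cannot be told apart.

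Deviations from the group means correlated at -0.10, 0.10 and 0.53 between libraries numbered 1, 2 and 3, so the numbers were not taken to pair all libraries. The value for number 3 was the highest of the 12 pairs across groups, which is a hint from the data and not from the design. With the replicate number as a block, 34 members and 7029 genes were called, with Psmd8 and Psmg1 (adjusted p between 0.0658 and 0.0696) losing their calls, and the paired differences in log2 ratio were 0.025, 0.65 and 0.20; FOXP3-low replicate 4 has no partner there. Members under about 10 CPM, such as Psmg2 to Psmg4, have the least depth behind them.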
